A study of Mus musculus with 32 samples.

Results

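The 10 genes described here encode transcription factors and a chromatin protein that mark lineages of the lung and of its embryonic buds: *Nkx2-1*, *Foxa1*, *Foxa2*, *Gata6*, *Foxp1*, *Foxp2*, *Sox9*, *Sox2*, *Hnf4a* and *Hmga2*. They were picked by symbol out of the 53558 genes of the files, and all 10 were found. RNA was sequenced in bulk from 32 libraries of neoplastic cells sorted out of mouse lung tumors (viable tdTomato-positive cells that lacked CD45, CD31, F4/80 and Ter119). The comparisons ask how these genes stood in tumors with *Lkb1* (gene symbol *Stk11*), a kinase and tumor suppressor, in tumors without it, and 2 weeks after it was put back.

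All mice were of a mixed C57BL/6J and 129 background and carried the *Rosa26* LSL-tdTomato reporter, and per the study's methods tumors were initiated at 6 to 12 weeks of age by lentiviral Cre delivered into the airway. *KT* mice (n = 4) had wild-type *Lkb1* and received no treatment. Non-restored tumors (n = 10 libraries) were homozygous for *Lkb1* XTR, an allele whose gene trap Cre switches on at initiation. They formed 2 arms, 4 libraries from mice that lacked FLPo-ERT2 and received tamoxifen (replicates 2, 7, 8 and 9) and 6 from mice that carried *Rosa26* FLPo-ERT2 and received vehicle. Restored tumors (n = 7 libraries) had the same allele with FLPo-ERT2, which deletes the trap when tamoxifen is given, and received 4 mg doses of tamoxifen over 2 weeks. These 3 groups had wild-type *Trp53* and were collected 24 to 27 weeks after initiation. Mice with *Trp53* flox/flox, in which Cre deletes *Trp53* as well, were collected at 16 to 19 weeks as non-restored (7 libraries from 4 animals, replicates 1 to 5 with FLPo-ERT2 and vehicle, replicates 6 and 7 without it and with tamoxifen) or restored (n = 4). Every restored library was female, and males were present in the other 3 groups. The *Trp53* genotype and the weeks of tumor growth cannot be told apart, and neither can FLPo-ERT2 and vehicle within the non-restored arms. Per the study's methods, *KT* mice received a lower dose of lentiviral Cre than the *Trp53* wild-type *Lkb1* XTR mice. In comparisons with *KT*, the *Lkb1* genotype thus cannot be told apart from virus dose and treatment. The study describes the XTR allele as lowering *Lkb1* somewhat even before Cre, and its FLPo-ERT2 is expressed from *Rosa26* and thus not in tumor cells alone.

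NKX2-1, FOXA1, FOXA2 and GATA6 act together in the distal lung epithelium, where they bind near surfactant genes. NKX2-1 is the factor by which lung adenocarcinomas are recognized, and in mouse tumors that lose it a gastric program appears. SOX9 and SOX2 divide the branching lung bud into a distal tip and a proximal airway, FOXP1 and FOXP2 are repressors of the distal epithelium, and HNF4A drives stomach, gut and liver genes. HMGA2 is a chromatin protein of embryonic cells whose mRNA is a classical target of the let-7 microRNAs.

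Total expected counts ranged from 1302482 to 5943951 per library. *Stk11* was at 22.5 TPM ± 6.12 (SD, n = 4) in *KT*, 0.45 ± 0.52 (n = 10) in non-restored and 16.2 ± 3.02 (n = 7) in restored tumors, and at 0.34 ± 0.52 (n = 7) and 11.1 ± 2.80 (n = 4) in *Trp53*-deficient non-restored and restored tumors. TPM is the transcript level that RSEM scales for gene length and library size. *Trp53* did not exceed 5.48 TPM in any *Trp53*-deficient library and was at least 10.8 TPM in every other one. The 6 epithelial identity genes (*Epcam*, *Cdh1* and keratins among them) summed to 597 to 2697 TPM. Summed immune markers (10 genes) stayed between 2.67 and 82.2 TPM and endothelial markers (7 genes) between 0.5 and 74.6 TPM, whereas 8 fibroblast and smooth muscle markers ran from 6.29 TPM to 2074 TPM, the latter in *Trp53*-deficient restored replicate 1. The neuroendocrine factor *Neurod1* was at 0 in every library. No 2 libraries of a group matched within counting noise.

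In every group the lung factors *Nkx2-1* and *Foxp1* held the 2 highest mean levels of the 10 genes in TPM, and the airway factor *Sox2* the lowest. *Nkx2-1* came first in *KT* (mean 123 TPM ± 10.8, SD, n = 4), in non-restored (194 ± 67.6, n = 10) and in restored tumors (159 ± 34.6, n = 7). Its range lay above that of *Foxp1* in *KT* and in restored libraries, and 9 of 10 non-restored libraries had more *Nkx2-1* than *Foxp1*. In *Trp53*-deficient tumors the order of these neighbours was the other way round, with *Foxp1* at 130 TPM ± 30.5 (SD, n = 7) and *Nkx2-1* at 98.3 ± 26.1 in non-restored libraries, and at 96.0 ± 18.1 and 89.9 ± 7.70 (n = 4) in restored ones. Their ranges overlapped there, since *Foxp1* was the higher of the pair in 5 of 7 and in 3 of 4 libraries.

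Below them came *Foxa2*, *Gata6* and *Foxa1*, whose mean TPM lay between 29.2 and 59.2 in each group, except that in *Trp53*-deficient restored tumors the mean of *Sox9* (32.4 TPM) was above that of *Foxa1* (31.5 TPM), with overlapping ranges. The levels of *Gata6* and *Foxa2* overlapped in every group. *Gata6* lay above *Foxa1* with no overlap in restored and in both groups of *Trp53*-deficient libraries. *Foxp2* had mean TPM of 13.2 to 29.0, *Sox9* of 13.4 to 32.4, *Hnf4a* of 1.08 to 23.0 and *Hmga2* of 1.37 to 21.2, and their ranges overlapped with those of their neighbours in most groups. *Sox2* was at or under 3 counts in 30 of 32 libraries and at 0 counts in 22, and its highest level was 2.37 TPM, from 5 counts in non-restored replicate 2. A count of 0 allows up to 3 counts, which in these libraries is 0.516 to 2.49 CPM (counts divided by the TMM-scaled depth), and this limit covers counting error only.

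**Figure D1:**
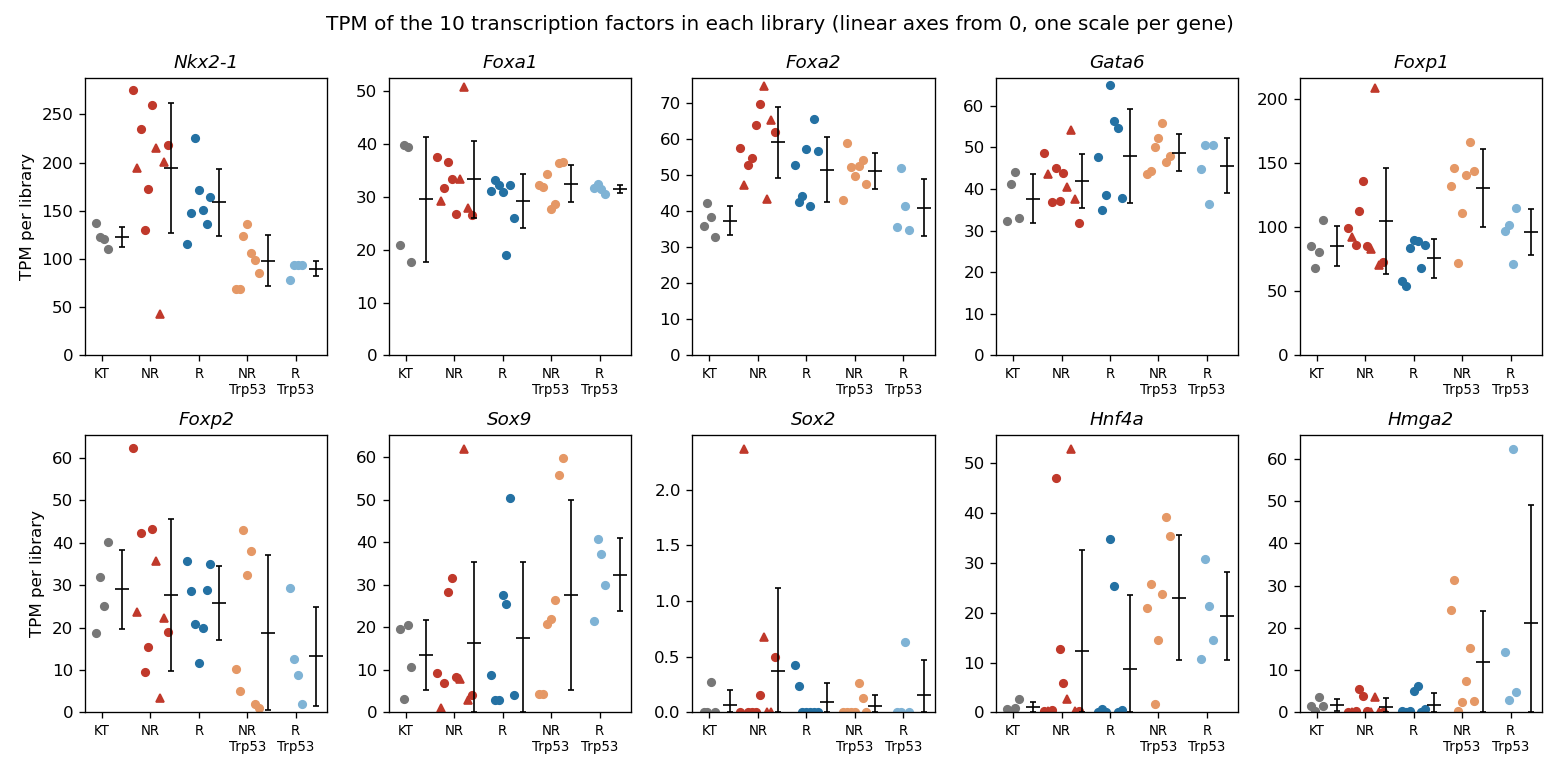
TPM (linear vertical axes, one scale per gene) of the 10 genes in each of the 32 libraries, by group; NR, non-restored; R, restored; triangles mark the non-restored arm given tamoxifen without FLPo-ERT2, and the bars give the group mean ± SD with the lower end cut at 0. In TPM, but not in CPM, *Foxa2* lies higher in all 10 non-restored libraries than in the 4 *KT* libraries. *Hnf4a* spans 0.19 to 52.9 TPM within the non-restored group.

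The 10 genes differed in their spread between libraries of the same group, which was taken over the 21 *Trp53* wild-type libraries. The within-group SD of log2 CPM was 0.21 for *Foxa2*, 0.25 for *Gata6*, 0.35 for *Foxp1*, 0.39 for *Foxa1* and 0.56 for *Nkx2-1*, against a median of 0.43 over 12636 genes tested. It was 0.92 for *Foxp2*, 1.57 for *Sox9*, 1.76 for *Hmga2* and 2.70 for *Hnf4a*, which placed *Sox9*, *Hmga2* and *Hnf4a* at the 97.8, 98.6 and 99.8 percentile of all genes tested. *Sox2* was too low for this scale.

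*Foxa2*, a forkhead pioneer factor of the lung and gut endoderm, was the 1 of 9 members tested that passed the threshold between non-restored and *KT* tumors. It was 1.40-fold higher in non-restored tumors (log2 fold change 0.49 ± 0.14, SE, 95% interval 0.22 to 0.76, adjusted p = 0.0372, edgeR's quasi-likelihood F test with Benjamini-Hochberg adjustment over all genes tested). The groups also differed in virus dose and treatment, whose part was not tested. At the same threshold 5.86% of 12636 genes passed in either direction. Its 4 *KT* libraries held 36.0, 42.4, 38.5 and 32.8 TPM. The 10 non-restored libraries ran from 43.4 TPM over a median of 59.7 to 74.9 TPM, so that every one of them lay above every *KT* library. Groups were apart in TPM in this way for 4.25% of genes. The margin in TPM between the highest *KT* and the lowest non-restored library was narrow. In CPM the groups overlapped, with *KT* replicate 2 at 66.4 CPM and non-restored replicates 2 and 8 at 65.2 and 65.7 CPM. Single libraries decided the call. Leaving out *KT* replicate 1, 3 or 4 gave adjusted p of 0.117, 0.0956 and 0.152, and leaving out replicate 6, 7, 9 or 10 of the non-restored group gave 0.0514, 0.0544, 0.0554 and 0.0509 (edgeR). The log2 fold change stayed between 0.36 and 0.56 over all alternatives, and DESeq2 also called *Foxa2*, as 1 of 1094 genes.

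Markers of other cell types and of epithelium also stood higher in part of the non-restored libraries. The 6 epithelial identity genes summed to 791 to 1119 TPM in *KT* (median 798) and to 1034 to 2697 TPM in non-restored libraries (median 1343), and all 6 had a positive log2 fold change. In that list edgeR called 0, with 2 at an unadjusted p under 0.05, and DESeq2 called 2 (*Cdh1* and *Krt19*), among 1094 genes in all. The 7 endothelial markers summed to 3.65 to 12.3 TPM in *KT* and 1.71 to 74.6 TPM in non-restored libraries, the 10 immune markers to 3.39 to 24.4 TPM and 3.13 to 46.2 TPM, and the 8 fibroblast and smooth muscle markers to 69.9 to 397 TPM and 15.7 to 753 TPM. *Cd3e* and *S100a9*, of T cells and neutrophils, were at 0 in every *KT* library. Of the 6 endothelial, 4 immune and 8 fibroblast and smooth muscle markers that passed the filter on low counts, edgeR called 0, with 0, 0 and 2 at an unadjusted p under 0.05, and DESeq2 called 0. Their part in the differences of *Foxa2*, *Nkx2-1* and the gene lists was not tested.

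*Nkx2-1*, the defining factor of lung and thyroid, did not pass in that comparison (log2 fold change 0.48 ± 0.29, SE, adjusted p = 0.352, edgeR), although its estimate was as large as that of *Foxa2*. The *KT* libraries held 137, 123, 121 and 111 TPM. In 8 of the 10 non-restored libraries the level was higher than in any *KT* library, with a median of 208 TPM and a highest value of 276 TPM. Replicate 8 of the non-restored group, from the tamoxifen arm, held only 43.0 TPM and was the lowest of all 32 libraries, and replicate 4 with 130 TPM lay within the *KT* range. Without replicate 8 the log2 fold change of *Nkx2-1* was 0.60 and its adjusted p 0.0483 (edgeR), so that this 1 library decided the call.

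The remaining 7 members tested gave no call between non-restored and *KT* tumors. The log2 fold changes of *Foxa1*, *Gata6* and *Foxp1* were 0.01, -0.01 and 0.19, with 95% intervals of -0.43 to 0.45, -0.31 to 0.29 and -0.24 to 0.62. Intervals were far wider for *Sox9* (-1.58 to 1.84), *Hmga2* (-2.92 to 1.79) and *Hnf4a* (-0.46 to 6.88). For *Sox2* the exact two-sided permutation test over the libraries gave p = 0.505, at levels near the limit of detection.

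Restoration of *Lkb1* for 2 weeks was followed by a call for none of the 9 members tested with edgeR in comparison with non-restored tumors, where 1.87% of genes passed; 0 members had an unadjusted p under 0.05, and DESeq2 called 0. The estimate for *Nkx2-1* was -0.19 on the log2 scale with a 95% interval of -0.65 to 0.26, and that for *Foxa2* was -0.12 with an interval of -0.33 to 0.10. The difference of *Foxa2* from *KT*, 0.49, has an interval of its own (0.22 to 0.76) and rests on the same non-restored libraries. Whether *Foxa2* returned in full, in part or not at all is thus not settled by these intervals. The restored libraries held 41.6 to 65.7 TPM of *Foxa2* (median 53.0), and 6 of 7 lay above all *KT* libraries. *Nkx2-1* was at 116 to 226 TPM (median 151) in them, with 5 of 7 above all *KT* libraries. *Gata6*, a zinc finger factor of the endoderm, was at 35.0 to 64.9 TPM in restored against 31.7 to 54.1 TPM in non-restored libraries (log2 fold change 0.25, interval 0.01 to 0.50, adjusted p = 0.342, edgeR). *Foxp1* was at 53.7 to 89.7 TPM against 70.8 to 208 TPM (log2 fold change -0.34, interval -0.70 to 0.01, adjusted p = 0.390, edgeR).

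Between restored and *KT* tumors 0 of 9 members tested passed with edgeR, 1 had an unadjusted p under 0.05 (*Foxa2*, log2 fold change 0.37, interval 0.09 to 0.65, adjusted p = 0.333), DESeq2 called 0, and 0.459% of all genes passed. This comparison shares its *KT* libraries with that of non-restored tumors and its restored libraries with that of restored against non-restored tumors. The non-restored arms were compared as well, and 0 of 9 members differed by edgeR between the tamoxifen arm and the vehicle arm, with 0 at an unadjusted p under 0.05 and 0 by DESeq2, where 0.00791% of genes passed. The estimate between the arms for *Foxa2* was 0.01 with an interval of -0.28 to 0.29. For *Nkx2-1* it was -0.37 with an interval of -0.96 to 0.22, and replicate 8 belongs to the tamoxifen arm.

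**Figure D2:**
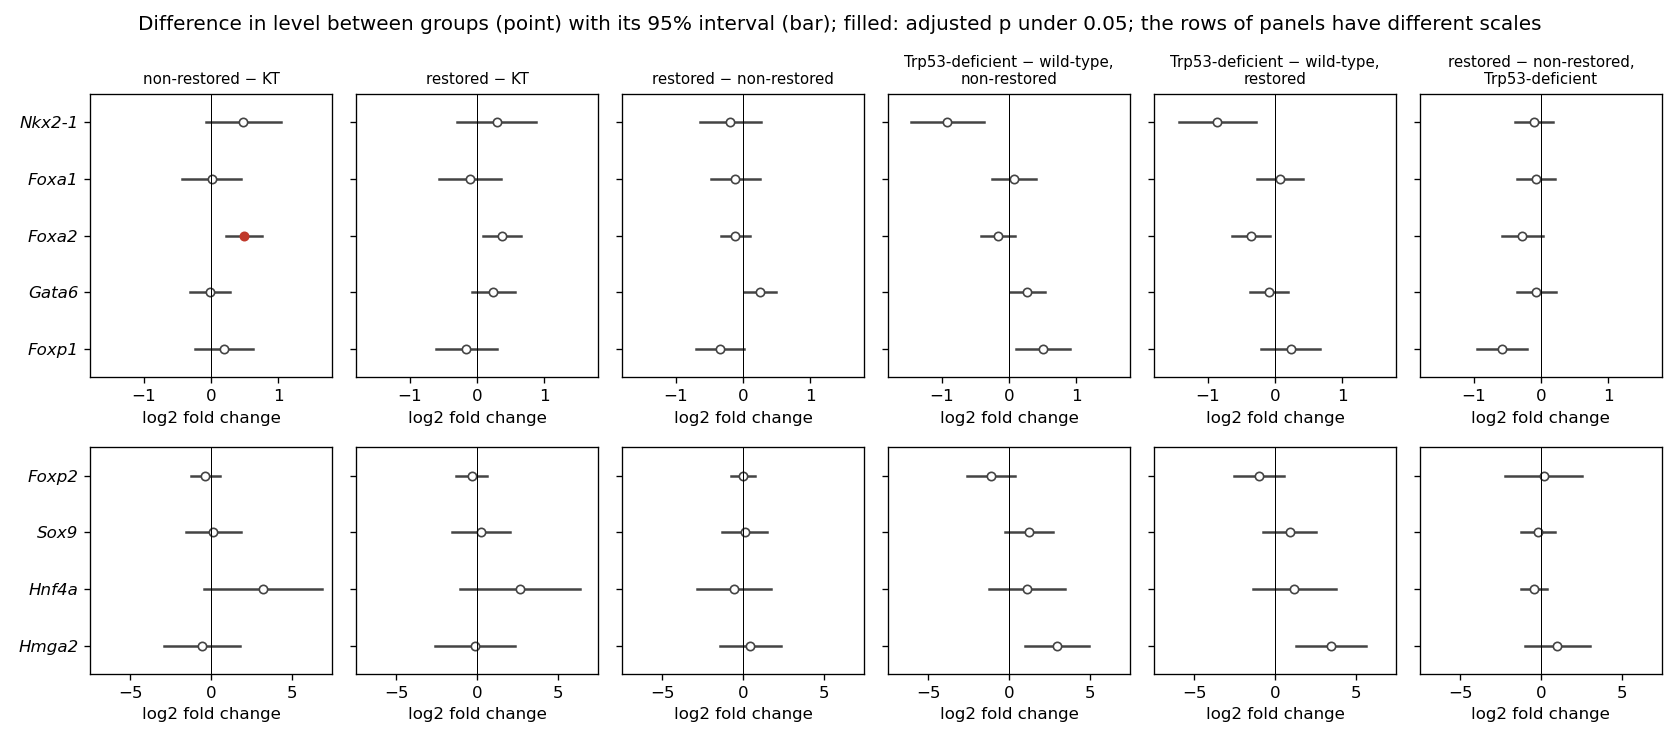
Log2 fold change (horizontal axes) of the 9 members tested in 6 comparisons, each point with its 95% interval; a filled point has an adjusted p under 0.05 (edgeR), and the upper and lower panels have different scales. *Foxa2* between non-restored and *KT* tumors (0.49) is the 1 filled point, and the intervals of *Sox9*, *Hnf4a* and *Hmga2* are the widest in the comparison of non-restored with *KT* tumors.

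*Nkx2-1* was lower and *Hmga2* higher in *Trp53*-deficient than in *Trp53* wild-type tumors in both pairs of groups by their estimates, but neither passed the threshold. Among non-restored tumors 0 of 9 members tested passed with edgeR, 3 had an unadjusted p under 0.05 (*Nkx2-1*, *Foxp1* and *Hmga2*), and 0.598% of genes passed. Unadjusted p-values near 0.05 were common there, since *Gata6* at 0.0529 (edgeR) ranked only 2531 of 13705 genes. By the same measure *Nkx2-1*, *Hmga2* and *Foxp1* ranked 384, 706 and 1401. DESeq2 called 1 member (*Nkx2-1*), where it called 414 genes in all against the 82 of edgeR. The log2 fold change of *Nkx2-1* was -0.92 ± 0.28 (SE, adjusted p = 0.108, edgeR), that of *Foxp1* 0.51 ± 0.21 (adjusted p = 0.210) and that of *Hmga2* 2.98 ± 1.01 (adjusted p = 0.142). Libraries of 1 animal were summed for these tests, which left 4 animals in the *Trp53*-deficient group. Averaged by animal, *Nkx2-1* was at 87.4, 121, 98.9 and 85.2 TPM. These 4 values lay below 9 of the 10 *Trp53* wild-type non-restored libraries, and above the 43.0 TPM of replicate 8.

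Replicate 8 weighed on this comparison more than any other library. Without it *Nkx2-1* (log2 fold change -1.05, adjusted p = 0.00208), *Foxp1* (0.69, adjusted p = 0.00404) and *Hmga2* (3.40, adjusted p = 0.0461) all passed in edgeR, and the number of genes called rose from 82 to 1450. No other library or animal, left out in turn, gave any member a call in this comparison. The 6 epithelial identity genes summed to 2697 TPM in replicate 8, the highest of the 32 libraries, and its immune, endothelial and fibroblast marker sums were 11.8, 1.71 and 15.7 TPM.

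Among restored tumors the 4 *Trp53*-deficient libraries held 78.4, 94.0, 93.7 and 93.6 TPM of *Nkx2-1*, all below the 7 *Trp53* wild-type libraries (116 to 226 TPM). Groups were apart in TPM for 2.69% of genes in this comparison. Replicate 1, the lowest of the 4, was the library with 2074 TPM of fibroblast and smooth muscle markers, against 6.29 to 246 TPM in the other 3, and their part in its value was not tested. The log2 fold change was -0.86 ± 0.29 (SE, adjusted p = 0.182, edgeR). *Foxa2* was at 35.8, 52.2, 41.4 and 34.9 TPM against 41.6 to 65.7 TPM (log2 fold change -0.36 ± 0.14, adjusted p = 0.242), and *Hmga2* at 14.3, 3.00, 62.4 and 4.88 TPM against 0 to 6.18 TPM (3.48 ± 1.10, adjusted p = 0.169). With edgeR 0 of 9 members passed, 3 had an unadjusted p under 0.05, DESeq2 called 0, and 0.372% of genes passed. *Foxa2*, at an unadjusted p of 0.0183 (edgeR), ranked 1039 of 13705 genes. In *Trp53*-deficient tumors the weeks since initiation were fewer, so neither difference can be ascribed to *Trp53* or to time.

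Within *Trp53*-deficient tumors restoration gave 0 calls among 9 members and among all 12518 genes tested with edgeR (0% of genes), with 1 member at an unadjusted p under 0.05 and 0 called by DESeq2. That member was *Foxp1*, at 117, 126, 166 and 143 TPM by animal in non-restored and at 96.6, 102, 71.4 and 115 TPM in restored tumors (log2 fold change -0.58 ± 0.19, adjusted p = 0.803). The highest restored value reached close to the lowest animal of the other group, and single libraries of the groups overlapped. The effect of restoration was also compared between *Trp53* backgrounds, where 0 of 9 members and 0% of 13705 genes passed by edgeR, 0 members had an unadjusted p under 0.05, and DESeq2 called 0 members. The interval of that difference was -0.70 to 0.82 for *Nkx2-1* and -0.57 to 0.18 for *Foxa2* on the log2 scale.

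*Hnf4a*, a nuclear receptor of liver, stomach and gut that normal lung epithelium does not use, was the most uneven of the 10 genes. In *KT* libraries it was at 0.60, 0.24, 0.83 and 2.64 TPM. In the non-restored libraries 1 to 10 it was at 0.36, 0.21, 0.43, 46.9, 12.7, 5.90, 2.75, 52.9, 0.19 and 0.22 TPM. Thus 5 of 10 libraries were above all *KT* libraries in TPM, themselves spread from 2.75 to 52.9 TPM. Of these, replicate 7 was not above them in CPM (8.13, against 8.64 in *KT* replicate 4). Replicates 2, 9 and 10 lay below all *KT* libraries in TPM. They held 1, 3 and 1 counts, against 1 count in *KT* replicate 2, so this is no measured difference. In the restored libraries 1 to 7 it was at 0, 0.77, 0, 34.8, 25.3, 0.10 and 0.57 TPM, so that replicates 4 and 5 stood apart from the others. All 4 *Trp53*-deficient restored libraries held 10.7 to 30.9 TPM and 6 of 7 *Trp53*-deficient non-restored libraries 14.5 to 39.1 TPM, with replicate 3 at 1.74 TPM. In bulk tumor cells a larger share of cells with *Hnf4a* and more *Hnf4a* RNA per cell cannot be told apart.

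None of the comparisons gave a call for *Hnf4a* in edgeR. Its log2 fold change between non-restored and *KT* tumors was 3.21 ± 1.87 (SE, adjusted p = 0.345), and that between restored and non-restored tumors -0.55 ± 1.17 (adjusted p = 0.882). The latter turned to 0.28 without non-restored replicate 8. *Hnf4a* lies on chr2:163506808-163572910 (GRCm38, plus strand) and has an upstream start, used in stomach and gut, and a downstream start used in adult liver. The antisense gene *Hnf4aos* overlaps it, and whether strand was used in the counting is not given in the sources used here. The 250 bases before each start are printed because *Hnf4a* was the member with the largest spread. They come from RefSeq (GRCm38.p6, plus strand), at chr2:163506607-163506856 and chr2:163546905-163547154. Capitals mark matches, on either strand, to 8 short motifs of the factor families (TGTTTAC and TGTTTGC of forkhead factors, CAAGTG of NKX2 factors, AGATAA of GATA factors, ACAAAG and ACAATG of SOX factors, CAAAGTCC of HNF4, and GTTAAT, which is part of the HNF1 site).
Hnf4a upstream start: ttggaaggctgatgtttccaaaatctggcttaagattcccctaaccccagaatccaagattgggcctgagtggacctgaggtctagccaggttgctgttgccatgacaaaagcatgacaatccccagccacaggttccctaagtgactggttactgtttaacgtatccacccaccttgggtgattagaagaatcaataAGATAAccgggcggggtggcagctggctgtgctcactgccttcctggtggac
Hnf4a downstream start: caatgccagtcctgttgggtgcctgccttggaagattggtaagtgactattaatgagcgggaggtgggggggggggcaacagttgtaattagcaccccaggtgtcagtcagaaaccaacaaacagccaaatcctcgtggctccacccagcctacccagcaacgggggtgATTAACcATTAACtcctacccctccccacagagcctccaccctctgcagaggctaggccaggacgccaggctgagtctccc

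The upstream window held 1 match, to the GATA letters, 52 bases before the start. The downstream window held 2 matches to GTTAAT on the other strand, 81 and 74 bases before the start. Of 32851 promoter windows of the same length in the table, 9.99% held the GATA letters and 6.43% held GTTAAT. Matching letters describe the sequence and are no evidence of a bound site. For the 17 libraries with over 30 *Hnf4a* counts, the effective length that RSEM gave the gene was 3137 to 4176 bases (median 3842). The annotation's 2 long models, of 4356 and 4362 bases, begin at the downstream start, and its model from the upstream start has only 431 bases. A full-length transcript from the upstream start is thus missing from these models, and the lengths do not tell which start was used.

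The 16 gastric and gut genes of a fixed list (among them the trefoil factors *Tff1*, *Tff2* and *Tff3*, the mucin *Muc5ac*, the gastrokine *Gkn1* and the protease *Ctse*) were largely high in the same libraries as *Hnf4a*. Their summed level was 50.5 to 150 TPM in *KT*. In the non-restored group it was 5912, 3259, 2368, 1044 and 26808 TPM in replicates 4, 5, 6, 7 and 8, which were the 5 highest in *Hnf4a*, and 25.6 to 149 TPM in the other 5. In the restored group it was 1384 and 1336 TPM in replicates 4 and 5 and 40.2 to 122 TPM in the other 5. *Trp53*-deficient libraries held 517 to 20829 TPM when non-restored and 575 to 5629 TPM when restored. Across libraries the order was not exact, since *KT* replicate 4 had 2.64 TPM of *Hnf4a*, close to the 2.75 TPM of non-restored replicate 7, at a summed level of 89.8 TPM. *Trp53*-deficient non-restored replicate 3 had only 1.74 TPM of *Hnf4a* at a summed level of 517 TPM, above every *KT* library.

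*Tff1*, a secreted stomach peptide and the most abundant gene of that list, was at 22523 TPM in non-restored replicate 8 and at 4784 TPM in replicate 4. It was at 0 in 3 of 4 *KT* libraries and in 5 of 7 restored libraries. Of the 16 genes, 11 passed the filter on low counts, and 5 of the 16 were at 0 in every *KT* library, so a gene could pass through the libraries in which it was high. Between non-restored and *KT* tumors edgeR called 0 of the 11, with 4 at an unadjusted p under 0.05, whereas DESeq2 called 5. Over all genes edgeR called 5.86% in that comparison, and DESeq2 called 1094 genes. The 2 genes tested with the highest mean CPM were *Tff1* (log2 fold change 9.65 ± 3.25, SE, adjusted p = 0.0863) and *Ctse* (1.23 ± 1.34, adjusted p = 0.649).

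The alveolar program genes (14 genes, surfactant proteins among them) include markers of alveolar type II cells, which per the study are thought to be a major origin of such tumors. These 14 genes ran the other way in some of these libraries. Their summed TPM was 9123 in non-restored replicate 8 and 45017 to 117545 in the other 9 non-restored libraries. In the restored group replicates 4 and 5, with the most *Hnf4a*, had the lowest sums (71466 and 78771 TPM), within the *KT* range of 73150 to 146978 TPM or just under it. *Sftpc*, a surfactant protein, was at 3104 TPM in non-restored replicate 8, and at 1616, 1910 and 1256 TPM in *Trp53*-deficient non-restored replicates 1, 2 and 7, where *Hnf4a* was at 20.99, 25.7 and 35.4 TPM. *Nkx2-1* in those 3 *Trp53*-deficient libraries was at 68.6, 69.3 and 85.2 TPM, the lowest of their group. Their alveolar sums were 13806, 14464 and 9644 TPM. Replicate 6 of the same group had the most *Hnf4a* there (39.1 TPM), yet its alveolar sum was 32334 TPM and its *Nkx2-1* 98.9 TPM. Non-restored replicate 6, with 5.90 TPM of *Hnf4a*, had the highest alveolar sum of its group (117545 TPM). The level of *Hnf4a* did not track that of *Nkx2-1* throughout, since non-restored replicate 4 held 46.9 TPM of *Hnf4a* with 130 TPM of *Nkx2-1*, and restored replicate 4 held 34.8 with 171 TPM.

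**Figure D3:**
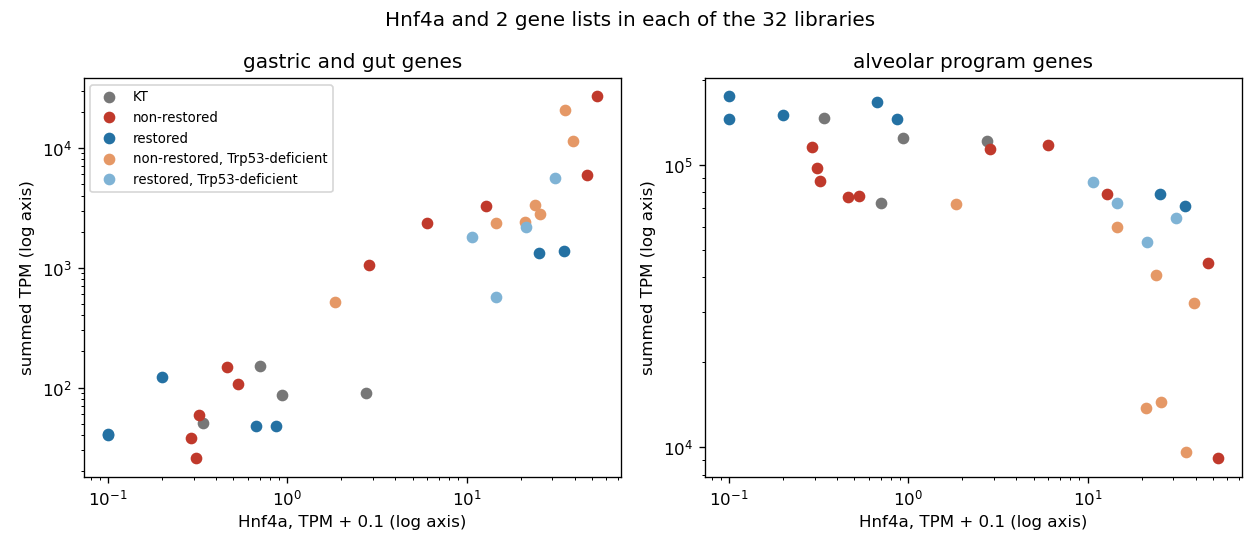
*Hnf4a* (horizontal axis, TPM + 0.1, log scale) against the summed TPM (vertical axis, log scale) of 16 gastric and gut genes and of 14 alveolar program genes, with 1 point per library and colors by group. Non-restored replicate 8, at 52.9 TPM of *Hnf4a*, has the highest gastric and gut sum (26808 TPM) and the lowest alveolar sum (9123 TPM) of the 32 libraries.

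*Sox9*, the factor of the distal bud tip, was also uneven. It was at 19.5, 3.04, 20.6 and 10.6 TPM in *KT*, at 1.12 to 62.1 TPM (median 8.03) in non-restored and at 2.94 to 50.4 TPM (median 8.77) in restored tumors. The 3 non-restored libraries above all *KT* libraries were replicates 4, 5 and 8, which were also the 3 highest in *Hnf4a*. In restored tumors replicates 4, 5 and 6 held 27.6, 25.6 and 50.4 TPM of *Sox9*, yet replicate 6 had 0.10 TPM of *Hnf4a*. *Trp53*-deficient restored libraries held 21.4 to 40.7 TPM and non-restored ones 4.30 to 60.0 TPM. The log2 fold change of *Sox9* between *Trp53*-deficient and wild-type non-restored tumors was 1.24 ± 0.76 (SE, adjusted p = 0.387, edgeR).

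*Foxp2*, a forkhead repressor of the distal epithelium, was at 18.6 to 40.2 TPM in *KT*, 3.44 to 62.2 TPM in non-restored and 11.7 to 35.6 TPM in restored tumors. Non-restored replicate 8 was lowest in its group. In *Trp53*-deficient non-restored tumors it fell into high and low libraries, with 42.9, 32.3 and 38.0 TPM in replicates 3, 4 and 5 and 10.2, 5.11, 2.00 and 0.95 TPM in replicates 1, 2, 6 and 7. The related *Foxp1* was at 208 TPM in non-restored replicate 8, against 70.8 to 136 TPM in the other 9, so that the related genes stood at opposite ends of the group in that library.

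*Hmga2* was low in *Trp53* wild-type tumors, at 1.43, 0.28, 3.68 and 1.57 TPM in *KT*, 0 to 5.44 TPM in non-restored and 0 to 6.18 TPM in restored libraries. Its 3 highest values in the non-restored group were those of replicates 4, 5 and 8, and its 2 highest in the restored group were those of replicates 4 and 5, the libraries with the most *Hnf4a* in each. In *Trp53*-deficient tumors it was at 24.3, 31.4, 0.44, 2.43, 7.32, 15.2 and 2.74 TPM in non-restored replicates 1 to 7 and at 14.3, 3.00, 62.4 and 4.88 TPM in restored ones. It had at most 3 counts in 13 of 32 libraries, which limits what a difference can show.

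The *Hmga2* mRNA carries matches to the let-7 seed in its 3′ UTR, which are printed because the gene is the best known target of that family and was the member with the largest estimate between *Trp53* backgrounds. MicroRNAs were not measured here. The mature let-7a-5p is from RefSeq (GRCm38.p6, chr13:48538239-48538260, minus strand), with its seed, bases 2 to 8, in capitals. The sites are from GENCODE M21 transcript Hmga2-201 (GRCm38, chromosome 10, minus strand), in whose 3′ UTR of 2977 bases the letters CTACCTC, in capitals, occur 4 times, within chr10:120364218-120364241, chr10:120362981-120363004, chr10:120362543-120362566 and chr10:120361685-120361708.
mmu-let-7a-5p: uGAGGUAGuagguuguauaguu
Hmga2 site 1: cattcaatttCTACCTCagcatca
Hmga2 site 2: ctcctcaataCTACCTCtgaatgc
Hmga2 site 3: ttgcaaggaaCTACCTCcacactt
Hmga2 site 4: aaacacactaCTACCTCttaagtc

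Of 10 genes of a list of the let-7 axis and oncofetal state, 6 were tested between *Trp53* backgrounds in non-restored tumors. There edgeR called 0, with 3 at an unadjusted p under 0.05, where 0.598% of all genes passed. DESeq2 called 2 (*Hmga1* and *Plag1*), among the larger total given above for that comparison. In the fit of *Trp53* wild-type tumors 3 of the 10 genes passed the filter on low counts. *Hmga1*, a relative of *Hmga2*, was at 18.9 to 94.2 TPM in *Trp53*-deficient and 0 to 36.8 TPM in *Trp53* wild-type non-restored libraries (log2 fold change 2.27 ± 0.58, SE, adjusted p = 0.0629, edgeR), and its reads may be shared with a near-identical copy. For *Igf2*, a fetal growth factor, the log2 fold change was -0.21 (adjusted p = 0.906). Between *Trp53* backgrounds in restored tumors edgeR called 0 of the 6 genes with 2 at an unadjusted p under 0.05, and DESeq2 called 2 (*Hmga1* and *Igf2bp2*). Over all genes edgeR called 0.372% there, and DESeq2 called 225 genes. The let-7 antagonist *Lin28b* was at 0 in every library, and *Lin28a* did not exceed 0.36 TPM.

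Libraries of 1 animal could differ as much as those of different animals. *Trp53*-deficient non-restored replicates 1, 2 and 3 came from 1 animal, and replicates 1 and 2 held 20.99 and 25.7 TPM of *Hnf4a*, 24.3 and 31.4 TPM of *Hmga2* and 10.2 and 5.11 TPM of *Foxp2*. Replicate 3 held 1.74, 0.44 and 42.9 TPM of these genes and 124 TPM of *Nkx2-1*, against 68.6 and 69.3 TPM in the other two. Replicates 4 and 5, from another animal, differed less, with 14.5 and 23.8 TPM of *Hnf4a* and 136 and 106 TPM of *Nkx2-1*.

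**Figure D4:**
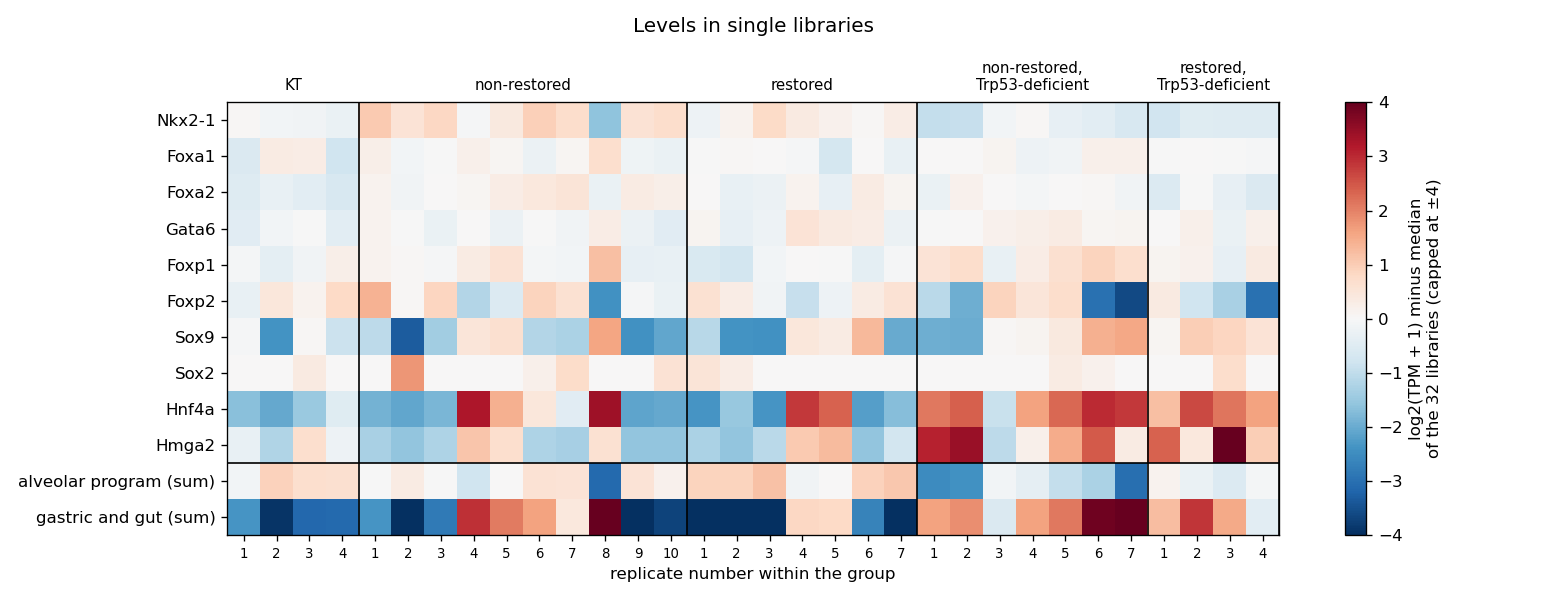
Color gives log2(TPM + 1) of each member, and of the summed alveolar and gastric and gut lists, minus its median over the 32 libraries (capped at 4 in either direction), with libraries in columns by group and replicate. Red and blue columns stand side by side within groups for *Hnf4a*, *Sox9*, *Hmga2* and *Foxp2*, as in *Trp53*-deficient non-restored replicates 1, 2 and 3 of 1 animal.

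The other lists put the members beside their neighbours in the lung program. Of the 14 alveolar program genes between non-restored and *KT* tumors, the tight junction gene *Cldn18* rose (log2 fold change 0.58, adjusted p = 0.0234) and the lysozyme *Lyz2* fell (-1.73, adjusted p = 0.0431, edgeR), and the median was -0.57 against 0.03 over all genes. *Lyz2* shares reads with its near-identical neighbour *Lyz1*, so its value is uncertain. After restoration *Lyz2* rose (1.83, adjusted p = 0.0313), the median of the 14 genes was 0.47, and 13 were positive, against a median of -0.01 over all genes. Over all genes edgeR called 5.86% between non-restored and *KT* tumors and 1.87% on restoration. The alveolar list was chosen with earlier results of these data known. It holds genes, *Lyz2* among them, that the study reported as higher in restored tumors, so the shift is no independent result. Of 21 other lung epithelial transcription factors, 17 were tested, and the ETS factor *Ehf* rose on restoration (0.80, adjusted p = 0.0242). Between non-restored and *KT* tumors edgeR called 0 of the 17 lung factors, with 6 at an unadjusted p under 0.05 and 0 by DESeq2, and *Etv5* and *Tfcp2l1*, the most abundant, had log2 fold changes of -0.96 (adjusted p = 0.144) and 0.15 (adjusted p = 0.712). None of the genes of the 5 lists passed between non-restored and *KT* tumors without *KT* replicate 1 or without replicate 3, nor on restoration without restored replicate 6.

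Of 11 distal tip progenitor genes, the company of *Sox9* in the lung bud, 9 were tested in *Trp53* wild-type tumors. Between non-restored and *KT* tumors edgeR called 0 of them, with 3 at an unadjusted p under 0.05 and 0 by DESeq2. *Fgfr2*, the receptor by which tip cells read FGF10, was at -1.01 ± 0.34 on the log2 scale (SE, adjusted p = 0.0836) and *Bmp4*, a tip signal, -0.25 ± 0.15 (adjusted p = 0.345). *Tnc*, an extracellular matrix protein, rose in *Trp53*-deficient against wild-type restored tumors (3.04 ± 0.64, adjusted p = 0.0261), at 39.5, 5.34, 27.7 and 1.57 TPM against 1.05 to 2.87 TPM. *Tnc* is also made by fibroblasts, whose markers were highest in replicate 1, where *Tnc* was highest, and the part of such cells was not tested. *Tff2* of the gastric and gut list rose between *Trp53* backgrounds in non-restored tumors (7.29, adjusted p = 0.0323), where it was at 0 in 9 of 10 *Trp53* wild-type libraries, so the size of this estimate depends on the prior count. *Tnc* was not called without *Trp53*-deficient restored replicate 1 or 3 or without restored replicate 1, 2, 6 or 7, nor *Tff2* without non-restored replicate 1, 2, 3, 6, 7, 9 or 10 or the animal of *Trp53*-deficient replicate 7.

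The genes most like each member were sought by rank over the 21 *Trp53* wild-type libraries and are given as a description. These libraries fall into groups and in part share mice by the study's mouse numbers. The Spearman correlations were highest for *Hnf4a*, with *B4galt6* (0.93) and *Slc45a3* (0.90), and the same measure gave 0.90 for *Nkx2-1* with *Mmp11* and 0.86 with *Col4a5*. *Foxa2* ran closest to *C2cd4b* (0.83) and *Camsap3* (0.81), *Foxa1* to *Ctsb* (0.79) and *Tsc22d2* (0.77), and *Gata6* to *Nabp1* (0.90) and *Ehf* (0.80). For *Foxp1* they were *Amn1* (0.81) and *Dsc2* (0.81), and for *Foxp2* *H2-K1* (0.88) and *Rab3c* (0.86). For *Sox9* they were *Pcsk6* (0.89) and *Fut2* (0.88), and for *Hmga2* *Mogs* (0.89) and *Hgfac* (0.88). Within the 10 non-restored libraries alone, *Camsap3* was again among the 2 closest to *Foxa2*, and for the other 8 members both genes were different ones.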

How the data were processed

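RNA-seq was performed on sorted tumor cells in 32 libraries. Per the study's methods and labels, the authors prepared libraries from nanogram amounts of RNA with the Trio RNA-Seq kit, aligned reads to mm10 with STAR 2.6.1d in 2-pass mode and quantified genes with RSEM 1.2.30. The authors deposited expected counts, which are unnormalized RSEM estimates of reads per gene (on average 5.57% of values not whole), and TPM, in which RSEM had corrected for effective length and library size. The authors' tables of normalized counts and of DESeq2 1.26.0 fold changes and p-values were not used, and 0 columns of per-library values outside the groups were left unused. Which strand was counted is not given in the sources used here.

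Rounded expected counts passed filterByExpr and TMM scaling. Groups were compared with the robust quasi-likelihood F test of edgeR 4.0.16 (limma 3.58.1, R 4.3.3), p-values were adjusted by the Benjamini-Hochberg method across every gene of a fit, and 0.05 was the threshold. In all, 21 *Trp53* wild-type libraries were fitted in 3 groups (4 groups for the arms), the 8 *Trp53*-deficient animals in a fit of their own, and 25 units in 4 groups for comparisons across *Trp53* backgrounds. Libraries of 1 animal were summed. *Sox2* failed the filter and was compared by exact, two-sided permutation of log2 CPM values with a prior count of 2. Intervals of 95% are 1.96 standard errors on either side. With few libraries this is narrower than the F test implies, so an interval can leave out 0 at an unadjusted p over 0.05. Levels between genes are compared in TPM only. Counts of members or list genes at an unadjusted p under 0.05 are description, given without the share over all genes. Small unadjusted p-values were common. Between non-restored and *KT* tumors *Foxa2*, at an unadjusted p of 0.0018 (edgeR), ranked 609 of 12636 genes. For *Trp53* wild-type tumors the study gives 3 mice in each non-restored arm and 4 restored mice, fewer than the libraries. By those numbers some libraries shared a mouse. The labels do not tell which, so these libraries were not summed and were treated as independent. Their p-values measure the spread between libraries and not between mice, and can be too small. Scripts were tested on simulated data.

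As alternatives, DESeq2 1.42.0, median-of-ratios scaling, an unfiltered table, at least 10 counts in every library, offsets from effective length, sex as a covariate, females alone, the compared groups alone, either control arm alone, unsummed libraries, a replicate block, and each library left out in turn were run. The members and gene lists were chosen with earlier results of these data known. All members are named, with the 2 genes most like each (Spearman correlation of log2 CPM among genes with a mean of at least 5 CPM), and of each list up to 4 called genes, or, where none was called, the 2 most abundant, although not every list is given for every comparison. *Gkn1*, *Sftpc*, *Plag1*, *Igf2bp2*, *Muc5ac*, *Tff3*, *Lin28a* and *Lin28b* were added after values were seen. Coordinates are those of GRCm38 (GENCODE M21 and RefSeq GRCm38.p6). RefSeq promoter windows were found for 7 of 10 members (12 windows, 3 without a match to any of the 8 motifs). Other steps used Python 3.11.15 with numpy 2.4.6 and matplotlib 3.10.9. Some genes and alleles are not reported here.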

Additional observations from a re-analysis of the deposited data

Results flagged for a closer look

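In groups of 4 to 10 libraries, the highest or lowest TPM of each member was set against the rest of its group, and a value was singled out where its gap to the nearest library was large for the range of the group (Dixon's 95% limit). Of 50 combinations of gene and group tested, 7 were singled out. For normally distributed values chance alone does this in about 1 of 20 groups, but that rate need not hold for TPM. It does not hold for *Sox2*, where 1 library above 0 in a group of 4 is always singled out. Non-restored replicate 8 accounted for 3 of the 7, being highest in *Foxa1* (50.7 TPM, next 37.5), in *Foxp1* (208 TPM, next 136) and in *Sox9* (62.1 TPM, next 31.7). *Nkx2-1* in *Trp53*-deficient restored replicate 1 was the lowest of its group (78.4 TPM, next 93.6). The other 3 were *Sox2* values from a handful of counts, at 0.27 TPM in *KT* replicate 3, 2.37 TPM in non-restored replicate 2 and 0.63 TPM in *Trp53*-deficient restored replicate 3.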

How the results depend on the processing

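The number of members called between non-restored and *KT* tumors (1, *Foxa2*) was 0 with no filter, effective length offsets, sex as a covariate, females alone, the 2 groups alone and the tamoxifen arm alone, and 0 to 2 with single libraries left out. It was also 0 with the replicate block, where *Foxa2* was at 0.40 on the log2 scale (adjusted p = 0.110, edgeR). Over all 25 alternatives its adjusted p ran from 0.0186 to 0.458. Shared replicate numbers were not taken as a pairing, since no label ties them to a mouse or day and not every pair correlated: deviations of the 15 same-numbered pairs correlated at -0.11 to 0.55, and 10 were over 0.1. Between non-restored and restored libraries 6 of 7 were (median 0.278, against 0.0515 over 63 pairs of other numbers), but 1 of 14 libraries correlated best with its own number. Between *Trp53* backgrounds in non-restored tumors, members called (0) became 1 with DESeq2 and 1 with unsummed libraries, and 0 to 3 with single libraries or animals left out.

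The number of genes called over the 5 lists between non-restored and *KT* tumors (2) was 7 with DESeq2, 1 with no filter, 1 with length offsets, 0 with females, 0 with the 2 groups alone, 4 with the replicate block, 0 with the tamoxifen arm, 6 with the vehicle arm and 0 to 4 with single libraries left out. Between restored and non-restored tumors (3) it was 1 with no filter, 7 with the block, 0 with the tamoxifen arm, and 0 to 4 with single libraries left out (0 without restored replicate 6, 1 without replicate 7). Between *Trp53* backgrounds it was, in non-restored tumors (1), 6 with DESeq2, 0 with no filter, 4 with sex, 0 with females, 4 with unsummed libraries and 0 to 19 with single libraries left out (19 without replicate 8), and in restored tumors (1), 6 with DESeq2, 0 with at least 10 counts and 0 to 2 with single libraries left out. DESeq2 also raised it from 0 to 1 for restored against *KT*, for restoration in *Trp53*-deficient tumors and for the arms.

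*Nkx2-1* between restored and non-restored tumors turned from -0.19 to 0.041 with the tamoxifen arm alone, and *Hnf4a* there ran from -1.36 to 0.28 with single libraries left out. Of the 2 genes most like each member, the non-restored libraries alone gave 1 again for *Foxa2* and 0 for the other 8. Of the other 56 estimates, 125 of 1241 alternatives had the opposite sign and 0 gained a call. Mean levels kept within their spread under median-of-ratios scaling. The causes were not tested. Genes called overall between non-restored and *KT* tumors ranged from 132 (females alone) to 1094 (DESeq2). Depth limits *Sox2*, *Hmga2* and low *Hnf4a* values, which rest on few counts.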
